A study of Mus musculus with 14 samples.

Results

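The genes described here are inhibitors of cyclin-dependent kinases (CDKs) other than p21, together with the retinoblastoma (pocket) proteins that those kinases switch off. The 9 genes were chosen by name, as Cdkn1b, Cdkn1c, Cdkn2a, Cdkn2b, Cdkn2c, Cdkn2d, Rb1, Rbl1 and Rbl2, out of 20492 gene symbols in each table, and all 9 were found, on 14 coding-sequence rows. Total RNA was sequenced from cortex and hippocampus of C57BL/6 mice aged 3 months, in a study of how neurons depend on intact telomeres. Cortex had 4 control samples and 3 depleted of TRF2 (encoded by Terf2), the shelterin protein that shields chromosome ends. Hippocampus had 3 of each. The design text names Dcx-Cre mice, in which the recombinase is driven by a gene of newborn and migrating neurons, so RNA of other cells is in the bulk tissue too. The design text calls the controls wild type, with no word on a floxed allele or Cre. 1 further TRF2-depleted sample has labels that name both tissues and was placed in no group here. Whether the authors' pooled TRF2-depleted values include it is not known, so those values may rest on 1 sample more, possibly of the other tissue. The hippocampus table also holds a condition called DKO. No label describes its genotype or number of samples, so it is reported under that name alone.

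CDK inhibitors hold dividing cells in G1 and help neurons stay out of the cycle. The Cip/Kip proteins p27 (Cdkn1b) and p57 (Cdkn1c) bind whole cyclin-CDK complexes, while the INK4 proteins p16 (Cdkn2a), p15 (Cdkn2b), p18 (Cdkn2c) and p19 (Cdkn2d) bind Cdk4 and Cdk6 and keep them from D-type cyclins. Without kinase activity the pocket proteins Rb (Rb1), p107 (Rbl1) and p130 (Rbl2) stay active and hold E2F transcription factors in check. Loss of telomere protection is sensed as DNA damage, and p16 is a widely used marker of senescence.

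Levels are FPKM, fragments per kilobase scaled to library size, with 1 value per condition that the authors pooled over samples, so no spread between samples can be shown and the read depth is unknown. Values of a gene were summed over its rows, and ratios were computed from those sums. A row was called when the authors' Cuffdiff test gave a q of 0.05 or less. Terf2 summed to 3.59 FPKM in control cortex against 0.202 FPKM with TRF2 depleted. In hippocampus it summed to 2.01 FPKM in control, 0.883 FPKM in the TRF2-depleted group and 0.753 FPKM in DKO, and the authors tested none of its 3 rows there. In cortex they tested 1 of the 3 (p = 0.105, q = 0.576 in the authors' deposited table). Markers of dentate granule and CA neurons summed to 136 and 105 FPKM in control hippocampus against 80.3 and 37.7 FPKM in control cortex, while markers of cortical projection neurons summed to 27.2 and 54.4 FPKM.

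Across all 4 comparisons no member was called. In cortex 4 members had a row that the authors tested, 0 of these rows were called and 0 had an unadjusted p under 0.05, where 0.304% of all 9536 tested rows were called and 6.24% had such a p. In TRF2-depleted against control hippocampus 5 members had a tested row, with 0 called and 1 at an unadjusted p under 0.05, against 0.163% and 4.89% of 11054 rows. In DKO against control 4 had a tested row, with 0 called and 0 under 0.05, against 0.181% and 6.71% of 11030 rows. In DKO against TRF2-depleted hippocampus 5 had one, with 0 called and 1 under 0.05, against 0.154% and 4.79% of 11017 rows. The row under 0.05 was that of Cdkn1c both times. These 3 hippocampus comparisons share groups with each other and are not independent. For the 8 members with a value above 0 the median cortex log2 ratio was -0.12 (7 lower), beside -0.02 over all 15060 genes above 0 in both groups, of which 53.8% were lower. In TRF2-depleted hippocampus the median was 0.02 (4 lower, 4 higher), beside 0.01 over all 15186 genes, of which 48.4% were lower. Against control the DKO median was -0.14 (5 of 8 lower), beside 0.02 over all genes, and against TRF2-depleted hippocampus it was -0.10 (5 of 8 lower), beside 0.01.

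**Figure D1:**
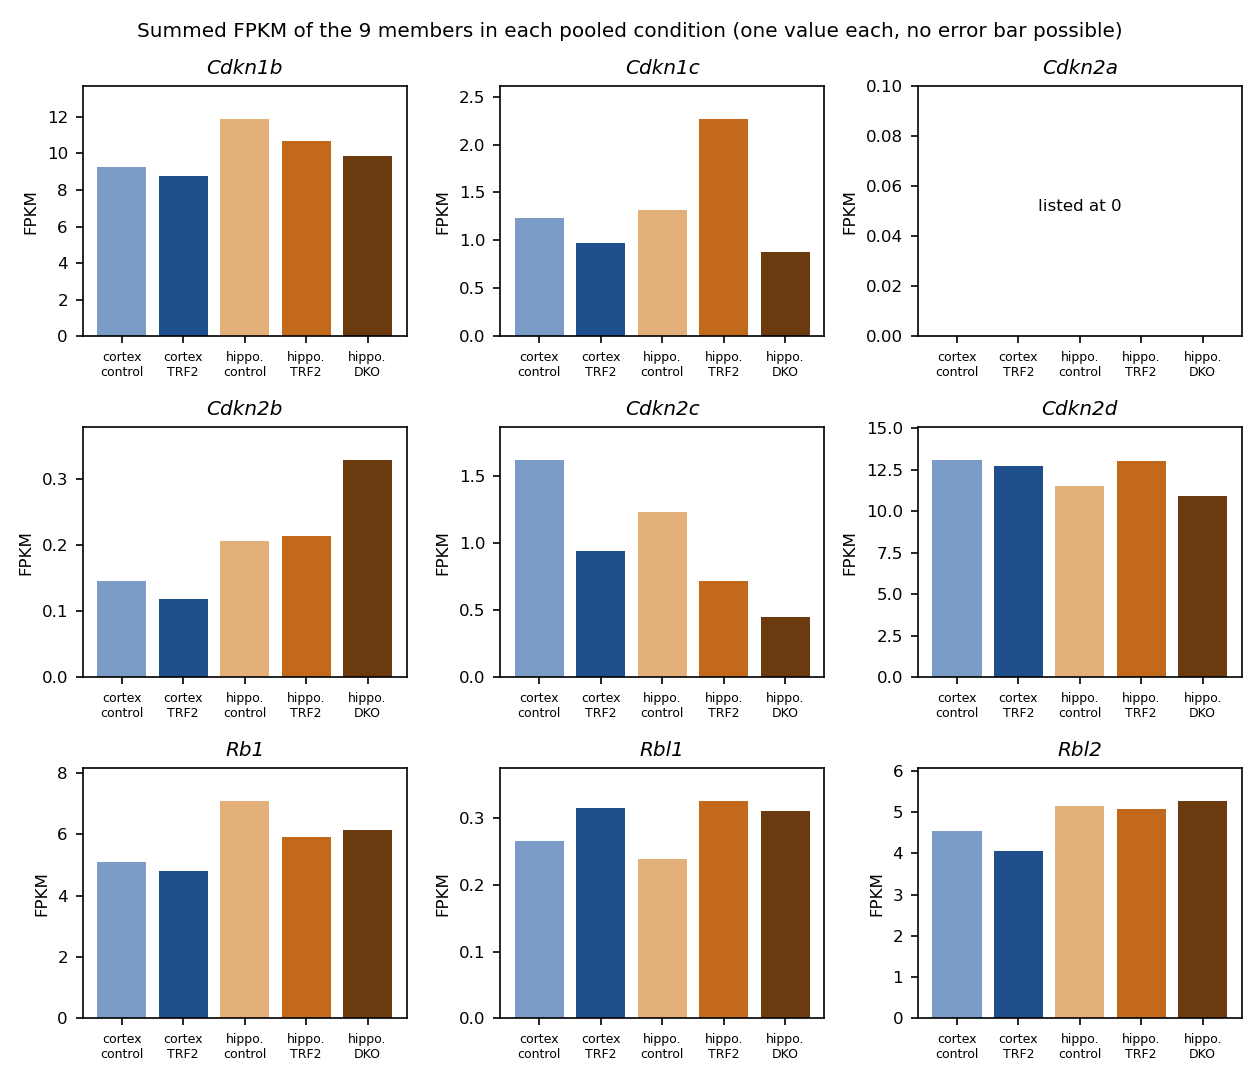
Summed FPKM (vertical axes from 0, a scale for each gene) of the 9 genes in the 5 pooled conditions, 1 bar per condition with no error bar because the authors pooled the samples. Cdkn1b, Cdkn2d, Rb1 and Rbl2 stand between 4.06 and 13.1 FPKM everywhere, Cdkn2a is listed at 0, and Cdkn1c and Cdkn2c differ most between conditions among the genes that reach 0.5 FPKM.

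Among the Cip/Kip inhibitors, p27 carried most of the RNA and differed little. Cdkn1b lies on chromosome 6 from 134920401 to 134925513 (GRCm38, plus strand), and the authors' deposited table lists its single row at 9.27 FPKM in control cortex against 8.78 FPKM with TRF2 depleted (p = 0.632, q = 0.895). In hippocampus it was at 11.9 FPKM in control, 10.7 FPKM in the TRF2-depleted group and 9.85 FPKM in DKO. The log2 ratio to control was -0.08 in cortex, -0.15 in TRF2-depleted hippocampus (p = 0.399 in the authors' deposited table) and -0.28 in DKO (p = 0.102 in the authors' deposited table). All 3 groups lay a little below the control of their tissue. Cdkn1b made up 82.5% to 91.8% of the summed FPKM of the pair in the 5 conditions.

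Cdkn1c, an imprinted gene expressed from the maternal copy, was low, and its values lay furthest apart in hippocampus. It lies on chromosome 7 from 143458339 to 143461050 (GRCm38, minus strand). Its 2 rows summed to 1.23 FPKM in control cortex against 0.976 FPKM with TRF2 depleted, where neither row was tested. In hippocampus nearly all of it came from 1 row, which gave 1.32 FPKM in control, 2.27 FPKM in the TRF2-depleted group and 0.879 FPKM in DKO in the authors' deposited table. TRF2-depleted hippocampus was thus the highest of the 5 conditions and DKO the lowest. The log2 ratio of TRF2-depleted to control hippocampus was 0.79 (p = 0.0207, q = 0.783 in the authors' deposited table). DKO was 2.59-fold below the TRF2-depleted group (log2 ratio -1.37, p = 0.00095, q = 0.260 in the authors' deposited table), and neither difference was called. Of genes with a mean of 0.5 to 2.5 FPKM, 26.6% differed at least 1.5-fold either way between TRF2-depleted and control hippocampus and 23.8% between DKO and TRF2-depleted hippocampus. The share past the larger DKO difference of Cdkn1c was not counted. GENCODE places an antisense transcript, Gm44732, over 625 exonic bases of Cdkn1c. Strand use in counting: not given in the sources used here.

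Markers of the choroid plexus, the epithelium that makes cerebrospinal fluid, were highest in the same 3 conditions as Cdkn1c, in the same order. The 10 markers summed to 98.9 FPKM in control cortex against 2.31 FPKM with TRF2 depleted, and to 281, 498 and 11.1 FPKM in control, TRF2-depleted and DKO hippocampus. Without Ttr, which dominates the sum, the other 9 gave 5.62 and 1.17 FPKM in cortex and 17.2, 26.2 and 5.55 FPKM in hippocampus. In TRF2-depleted hippocampus 10 of 10 choroid markers were higher than in control (0 of 6 tested called), and in DKO 7 of 7 with at least 0.1 FPKM in both groups were lower than in the TRF2-depleted group (4 of 6 tested called). In TRF2-depleted cortex 7 of 7 were lower (1 tested and called), with Kcne2 and Otx2 listed at 0. Against control hippocampus 6 of 7 were lower in DKO and 1 was higher (4 of 5 tested called, all lower). Meningeal fibroblast markers summed to 213 FPKM in control hippocampus, to 331 FPKM with TRF2 depleted (10 of 10 higher, 1 called), and to 335 FPKM in DKO. Most of that sum is Ptgds, at 165, 265 and 283 FPKM, and 8 of 10 meningeal markers were lower in DKO than in the TRF2-depleted group (median log2 ratio -0.19, 0 called). Without Ptgds and without Igf2, which is also on the list, the other 8 summed to 39.0, 53.4 and 43.5 FPKM, highest in the TRF2-depleted group as Cdkn1c was. The sum of the endothelial markers stayed between 31.6 and 33.6 FPKM in the 3 hippocampus conditions, with Ly6c1 at 11.0, 6.91 and 8.85 FPKM. By gene, 6 of 8 with at least 0.1 FPKM in both groups were higher in TRF2-depleted than in control hippocampus (median log2 ratio 0.25). Between DKO and the TRF2-depleted group 7 of 9 were lower in DKO (median -0.26), and 0 were called in either comparison. The part of these tissues in the Cdkn1c values was not tested, and in bulk samples fewer cells of a type and less RNA per cell cannot be told apart.

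**Figure D2:**
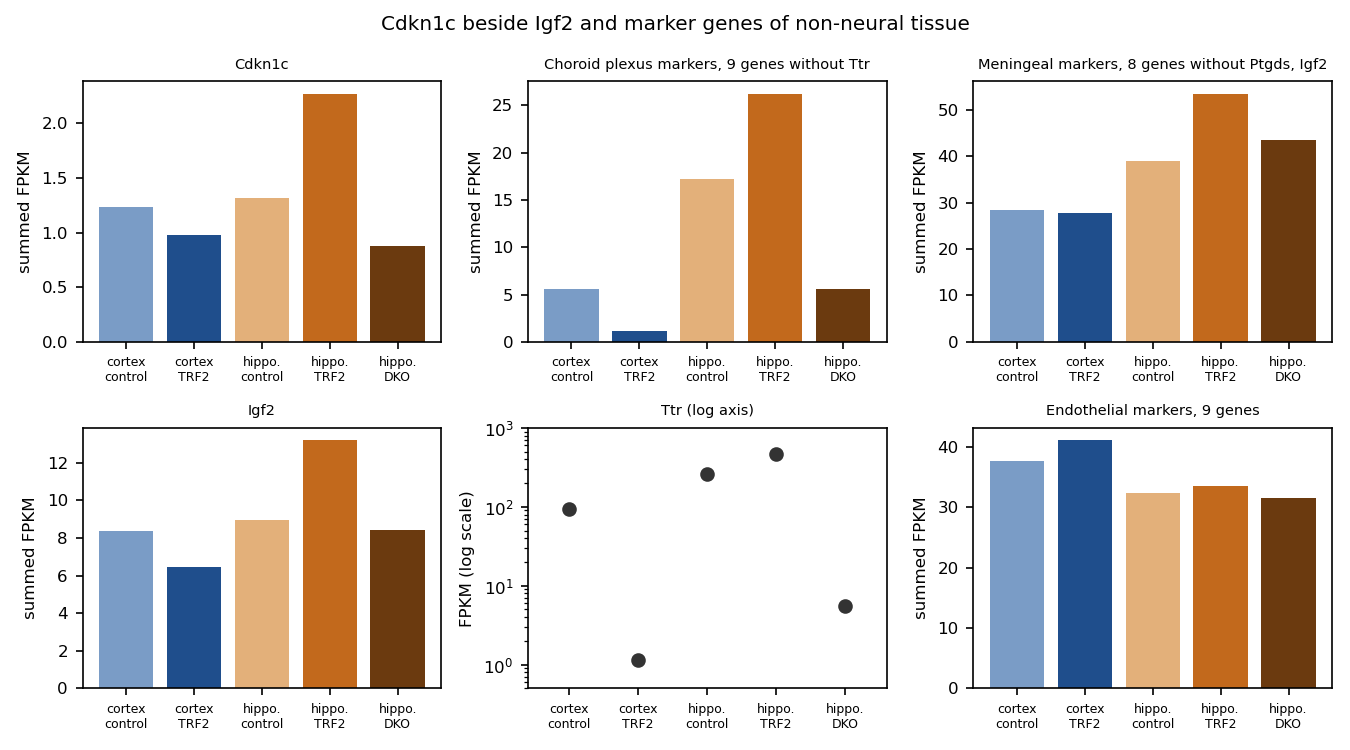
Summed FPKM of Cdkn1c, of its imprinted neighbour Igf2, and of marker sets of choroid plexus (without Ttr), meninges (8 genes, without Ptgds and Igf2) and blood vessels in the 5 pooled conditions (bars from 0, Ttr as points on a log axis). Cdkn1c, Igf2, the choroid plexus markers and the 8 meningeal markers are all highest in TRF2-depleted hippocampus (2.27, 13.2, 26.2 and 53.4 FPKM). Cdkn1c is lowest in DKO (0.880 FPKM), where the 8 meningeal markers (43.5 FPKM) lie above control hippocampus (39.0 FPKM). All 10 meningeal markers together are highest in DKO (335 FPKM).

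Around Cdkn1c on chromosome 7 lies an imprinted domain, and 8 of 10 listed neighbours were in the tables. The authors tested 3 or 4 of them in each comparison, and 0 were called. Igf2, a growth factor expressed from the paternal copy, summed to 8.37 and 6.48 FPKM in the cortex groups and to 8.96, 13.2 and 8.41 FPKM in control, TRF2-depleted and DKO hippocampus. Its main row had p = 0.00025 and q = 0.107 in TRF2-depleted against control hippocampus in the authors' deposited table. Of the neighbours with at least 0.1 FPKM in both groups, 5 of 5 were higher in TRF2-depleted hippocampus (median log2 ratio 0.37) and 4 of 5 were lower in DKO than in the TRF2-depleted group (median -0.65). These counts share the TRF2-depleted group, and over all genes at that level both medians were 0.01. In DKO against control hippocampus 3 of 5 were higher (median 0.07, beside 0.02 over all genes). In TRF2-depleted cortex 5 of 6 were lower (median -0.21, beside -0.02).

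Of the INK4 genes, the one for p16 was listed at 0 throughout. Cdkn2a lies on chromosome 4 from 89274471 to 89294653 (GRCm38, minus strand) and makes p16 and the p53 activator Arf from separate first exons. Both of its rows are listed at 0 in all 5 conditions in the authors' deposited table, as were 17.4% of gene symbols, so no ratio can be given. RefSeq (GRCm38.p6) gives the gene 2 start sites. The 250 bases before each are shown because both kinds of Cdkn2a transcript bear on the listing at 0, with a match to an E2F-like motif in capitals.
Cdkn2a, distal start, chr4:89294620-89294869, minus strand: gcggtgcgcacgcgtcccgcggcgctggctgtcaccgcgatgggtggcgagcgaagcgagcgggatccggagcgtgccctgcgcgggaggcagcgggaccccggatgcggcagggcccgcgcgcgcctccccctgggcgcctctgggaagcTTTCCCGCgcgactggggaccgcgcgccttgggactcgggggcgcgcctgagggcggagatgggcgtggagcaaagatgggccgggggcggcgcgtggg
Cdkn2a, proximal start, chr4:89282193-89282442, minus strand: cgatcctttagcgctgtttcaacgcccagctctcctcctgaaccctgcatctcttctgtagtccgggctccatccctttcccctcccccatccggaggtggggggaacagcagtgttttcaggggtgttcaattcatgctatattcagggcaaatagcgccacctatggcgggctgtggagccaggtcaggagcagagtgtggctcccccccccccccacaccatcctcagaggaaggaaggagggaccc
The motif searched was TTTCCCGC, TTTCGCGC, TTTGCCGC or TTTGGCGC on either strand. It was found in 2 of 9 windows of 300 bases (250 before and 50 after the start) from the 7 members with a window, and in 2.26% of all 32851 windows. In the distal window of Cdkn2a the match begins 99 bases before the start. The 9 windows held a median of 22 CG pairs, against 7 over all windows, and the distal Cdkn2a window held 45. No window was matched for Cdkn1c and Rb1.

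Cdkn2b, which encodes p15 and is the near neighbour of Cdkn2a (chromosome 4 from 89306299 to 89311039, minus strand), was measured at low levels that the authors did not test. The authors' deposited table lists it at 0.146 FPKM in control cortex against 0.118 FPKM with TRF2 depleted, and at 0.206, 0.215 and 0.330 FPKM in control, TRF2-depleted and DKO hippocampus. DKO hippocampus was the highest of the 5 values.

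Cdkn2c was lower than control in all 3 other groups. It encodes p18, lies on chromosome 4 from 109660876 to 109667189 (minus strand), and has 1 row, which the authors tested in none of the comparisons. The authors' deposited table lists 1.62 FPKM for control cortex and 0.942 FPKM with TRF2 depleted, a log2 ratio of -0.79. In hippocampus the authors' deposited table gives 1.23 FPKM in control, 0.719 FPKM in the TRF2-depleted group and 0.450 FPKM in DKO. The log2 ratios to control were -0.78 and -1.45, and these share the control group. TRF2-depleted cortex and hippocampus, which share no group, were thus 1.72-fold and 1.71-fold below their controls. Of genes with a mean of 0.5 to 2.5 FPKM, 20.5% differed at least 1.5-fold either way in the cortex comparison. In hippocampus 26.6% did so between the TRF2-depleted group and control, and 25.1% between DKO and control. The share past the larger DKO difference of Cdkn2c was not counted. Within 2829 genes in that range in both tissues, 267 were at least 1.5-fold lower in TRF2-depleted cortex and 264 in TRF2-depleted hippocampus. In both tissues 45 (1.59%) were that much lower, Cdkn2c among them. The 1.5-fold limit and this range were chosen after the values were seen. RefSeq lists 2 starts for Cdkn2c, and the 250 bases before each are shown because this gene had the same direction in both tissues. The locus of the deposited row runs from 109660876 to 109665372, so it reaches the proximal start but not the distal one. Transcripts from the distal start have no row of their own. Neither window held the E2F-like motif, and they had 33 and 8 CG pairs.
Cdkn2c, distal start, chr4:109666757-109667006, minus strand: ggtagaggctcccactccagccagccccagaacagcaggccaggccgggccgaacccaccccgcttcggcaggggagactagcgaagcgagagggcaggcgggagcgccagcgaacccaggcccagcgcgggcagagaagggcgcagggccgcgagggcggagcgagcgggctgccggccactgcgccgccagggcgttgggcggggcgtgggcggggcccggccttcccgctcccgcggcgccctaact
Cdkn2c, proximal start, chr4:109665373-109665622, minus strand: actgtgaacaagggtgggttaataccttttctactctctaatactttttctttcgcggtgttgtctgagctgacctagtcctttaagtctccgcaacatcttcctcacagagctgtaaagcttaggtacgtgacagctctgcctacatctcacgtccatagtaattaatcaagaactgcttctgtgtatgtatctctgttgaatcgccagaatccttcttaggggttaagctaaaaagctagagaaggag
Markers of 3 cell types were set beside p18. Newborn neuron markers summed to 8.15 and 8.57 FPKM in the cortex groups and to 12.5, 9.76 and 9.62 FPKM in the hippocampus groups. Neurod1 was the largest part in hippocampus, at 7.04, 4.77 and 5.37 FPKM, while Dcx was at 1.36, 1.43 and 1.10 FPKM. Of the 4 with at least 0.1 FPKM in both groups, 3 were lower and 1 was higher in TRF2-depleted than in control hippocampus. Oligodendrocyte precursor markers summed to 13.6 and 12.5 FPKM in cortex and to 14.1, 13.8 and 14.1 FPKM in hippocampus. Dentate granule markers fell from 136 to 83.2 FPKM in TRF2-depleted hippocampus (8 of 8 lower, 6 called, median log2 ratio -0.97) and were at 91.2 FPKM in DKO (median -0.62), while in cortex they were at 80.3 and 78.8 FPKM (median -0.07). Their part in the Cdkn2c values was not tested.

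**Figure D3:**
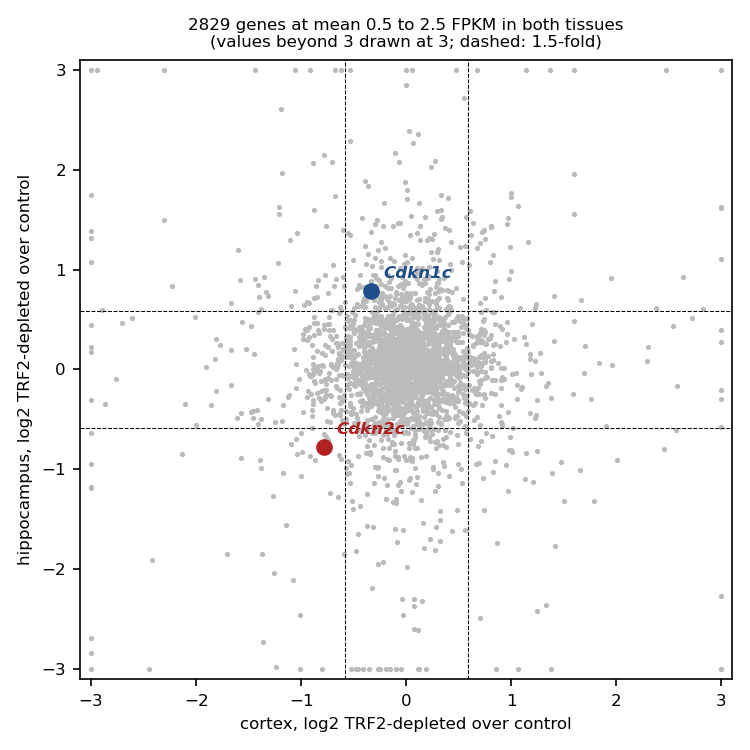
Log2 ratio of TRF2-depleted to control in cortex (horizontal) and hippocampus (vertical) for 2829 genes at a mean of 0.5 to 2.5 FPKM in both tissues, 1 point per gene, with dashed lines at 1.5-fold and values beyond 3 drawn at 3. Cdkn2c lies at -0.79 and -0.78, in the lower left field that holds 1.59% of the genes, and Cdkn1c at -0.34 and 0.79.

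Cdkn2d was the most abundant INK4 gene, with the smallest range. It encodes p19, an inhibitor that neurons keep after they leave the cycle, and lies on chromosome 9 from 21288410 to 21291407 (minus strand). The authors' deposited table lists 13.1 FPKM for control cortex and 12.7 FPKM with TRF2 depleted (p = 0.790). In hippocampus the authors' deposited table gives 11.5 FPKM in control, 13.0 FPKM in the TRF2-depleted group (p = 0.444) and 10.9 FPKM in DKO (p = 0.815 against control). Its highest value was 1.20 times its lowest. Cdkn2d gave 88.1% to 93.4% of the summed INK4 FPKM, and Cdkn2d and Cdkn1b were the 2 most abundant of the 9 genes in all 5 conditions.

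**Figure D4:**
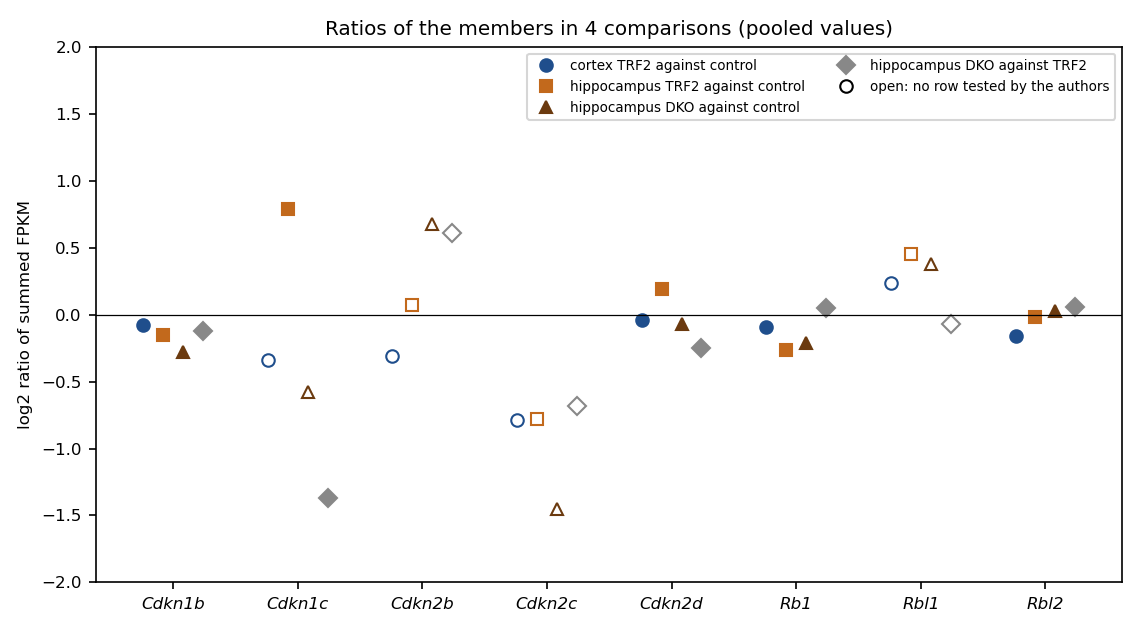
Log2 ratio of summed FPKM (vertical axis, 0 means equal) for the 8 genes above 0 in 4 comparisons, with filled symbols where the authors tested a row and open ones where they tested none. Cdkn2c lies below 0 in all 4, from -0.68 to -1.45 with no tested row, while Cdkn1c runs from -1.37 to 0.79.

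Of the pocket proteins, Rb and p130 were at similar levels and p107 was far lower. Rb1 (chromosome 14 from 73183673 to 73325822, minus strand) is listed in the authors' deposited table at 5.09 FPKM for control cortex and 4.80 FPKM with TRF2 depleted (p = 0.539). In hippocampus it was at 7.10 FPKM in control, 5.91 FPKM in the TRF2-depleted group (log2 ratio -0.26, p = 0.159) and 6.13 FPKM in DKO (-0.21, p = 0.188) in the authors' deposited table. Both other groups were below the control value they share. Lpar6 and Rcbtb2 overlap Rb1 on the other strand, over 408 and 488 of its exonic bases. Rcbtb2 was at 0.918, 0.00453 and 0.994 FPKM in control, TRF2-depleted and DKO hippocampus, and its part in the Rb1 values was not tested.

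Rbl1, the p107 gene that proliferating cells switch on, was near the lower end of what was measured. It lies on chromosome 2 from 157145893 to 157204534 (minus strand), and its 2 rows, neither of them tested, summed to 0.266 FPKM in control cortex and 0.315 FPKM with TRF2 depleted. In hippocampus the sums were 0.238, 0.326 and 0.310 FPKM in control, TRF2-depleted and DKO. The sums of all 3 other groups were above the control of their tissue, with log2 ratios of 0.24, 0.45 and 0.38. The rows differed in this. In hippocampus P14094 was at 0.0342, 0.111 and 0.0921 FPKM and the larger row, P14095, at 0.204, 0.215 and 0.218 FPKM. In cortex P14094 was at 0.146 and 0.143 FPKM and P14095 at 0.121 and 0.172 FPKM. Most of the difference thus lay in P14094 in hippocampus and in P14095 in cortex. Rb1 was 15.3 to 29.8 times as high as Rbl1 on this per-length scale. Its upstream window is shown as the other one with an E2F-like match, in capitals, beginning 18 bases before the start.
Rbl1, chr2:157204535-157204784, minus strand: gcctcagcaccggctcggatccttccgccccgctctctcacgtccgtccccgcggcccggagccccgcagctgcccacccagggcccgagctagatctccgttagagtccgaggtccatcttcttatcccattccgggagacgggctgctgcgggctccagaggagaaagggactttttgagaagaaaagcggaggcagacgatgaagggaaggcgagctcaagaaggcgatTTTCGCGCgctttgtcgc
The listed sequence ends at the base before the start site.

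Rbl2, the p130 gene typical of resting cells, had a steady sum that was divided differently over its 3 rows. It lies on chromosome 8 from 91070057 to 91123844 (plus strand). The sums were 4.55 and 4.06 FPKM in the cortex groups and 5.15, 5.08 and 5.28 FPKM in control, TRF2-depleted and DKO hippocampus. In cortex the row P22884 led, which the authors' deposited table lists at 3.17 FPKM for control and 3.66 FPKM with TRF2 depleted (p = 0.647). In hippocampus the row P22883 led, with 3.52, 3.56 and 4.91 FPKM in control, TRF2-depleted and DKO in the authors' deposited table. P22884 was at 1.62, 1.52 and 0 FPKM in those groups in the authors' deposited table, although P22883 was at 0.0337 FPKM or less in cortex. The cortex log2 ratio is -0.16 for the sum and 0.21 for the leading row, so the direction for Rbl2 depends on this choice. The deposited locus runs past the end of Rbl2 into Aktip, which shares 693 exonic bases on the other strand and was at 5.05 and 3.24 FPKM in cortex and 1.84, 0.401 and 0.000524 FPKM in hippocampus.

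**Figure D5:**
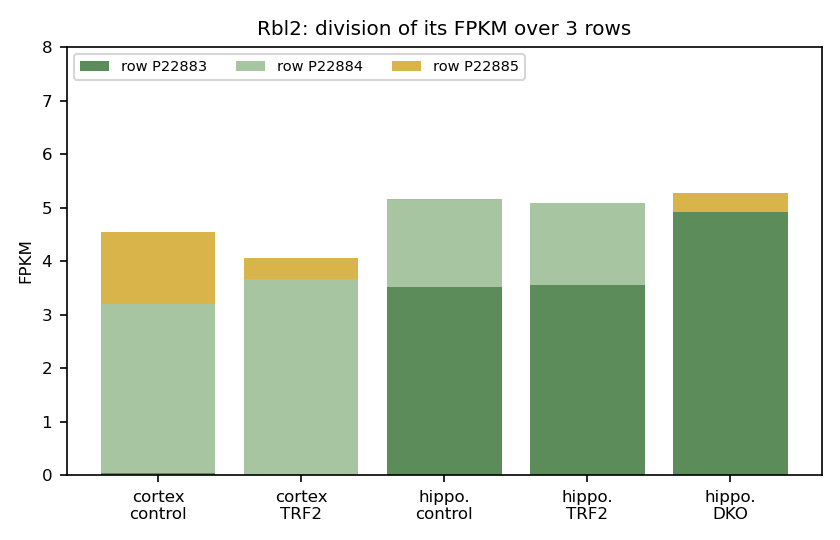
FPKM of the 3 coding-sequence rows of Rbl2, stacked for each of the 5 pooled conditions. The total stays between 4.06 and 5.28 FPKM while P22884 leads in cortex, P22883 leads in hippocampus and P22884 is listed at 0 in DKO.

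The genes that work with these inhibitors were described from 9 lists with 66 entries. In TRF2-depleted cortex 31 of them had a tested row and 1 was called, Foxo6, listed at 3.56 FPKM for control and 1.81 FPKM with TRF2 depleted (q = 0.00864 in the authors' deposited table). Of the 31, 1 higher and 2 lower had an unadjusted p under 0.05. Over all tested cortex rows 0.304% were called and 6.24% had such a p. FoxO factors activate Cdkn1b, and 3 of the 4 listed had a tested row. In the 3 hippocampus comparisons 35, 34 and 34 had a tested row and 0 were called, with 2, 3 and 2 at an unadjusted p under 0.05. Over all tested rows of these comparisons 0.163%, 0.181% and 0.154% were called, and 4.89%, 6.71% and 4.79% had such a p. Of 8 G1 cyclins and kinases 5 were tested in each comparison and 0 were called. Cyclin D1 (Ccnd1), which INK4 proteins keep from its kinases, is listed in the authors' deposited table at 6.78 FPKM for control cortex and 8.43 FPKM with TRF2 depleted (p = 0.0093, q = 0.235). Cyclin D3 (Ccnd3) went the other way there, from 4.85 to 3.42 FPKM (p = 0.0466, q = 0.460 in the authors' deposited table). Of the 8 genes, 4 were higher and 4 lower in TRF2-depleted cortex. Among 10 E2F and DP factors 4 were tested and 0 were called. In cortex the 7 with at least 0.1 FPKM in both groups had a median log2 ratio of -0.67 (4 lower, 3 higher). Over all genes at that level it was -0.02. Against control hippocampus the median of the list was -0.06 with TRF2 depleted and 0.01 in DKO. E2f4, which works with p130 in resting cells, is listed in the authors' deposited table at 3.98 FPKM for control cortex and 2.40 FPKM with TRF2 depleted (p = 0.215). In control, TRF2-depleted and DKO hippocampus E2f4 was at 5.71, 4.93 and 6.28 FPKM. The MuvB core, with which p107 and p130 form the DREAM repressor, had 4 of 5 tested and 0 called.

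E2F target and cell division genes, which the pocket proteins restrain, were mostly lower in TRF2-depleted hippocampus, but the authors tested only 3 of the 13 there (1 in cortex) and called 0. Of 10 with at least 0.1 FPKM in both groups 8 were lower, with a median log2 ratio of -0.45, beside 0.01 for all genes at that level. Several of the lower ones were at low levels, such as Top2a (0.325 and 0.106 FPKM) and Rrm2 (0.477 and 0.216 FPKM). Against the same control, 7 of 10 were lower in DKO (median -0.26, beside 0.02, 0 called). The replication helicase subunit Mcm6 is listed in the authors' deposited table at 2.70 FPKM for control and 1.72 FPKM with TRF2 depleted (p = 0.0114, q = 0.661). Thymidylate synthase (Tyms) is listed in the authors' deposited table at 1.77 and 1.28 FPKM (p = 0.0677). In cortex the median of the list was -0.03 over 11 genes (7 lower). Newborn neuron markers were at 12.5 and 9.76 FPKM in the same hippocampus groups (Neurod1 at 7.04 and 4.77 FPKM, Dcx at 1.36 and 1.43 FPKM). The part of these markers in the values of the E2F target list was not tested. Polycomb genes, which silence Cdkn2a in many tissues, had 5 or 6 of 7 tested and 0 called, and the authors' deposited table lists Bmi1 at 7.77 and 6.83 FPKM in the cortex groups (p = 0.141). Ubiquitin ligase genes that degrade p27 had 4 of 6 tested and 0 called, and the authors' deposited table lists Cul1 at 7.50 and 5.74 FPKM in the cortex groups (p = 0.231) but at 8.10, 14.6 and 11.3 FPKM in control, TRF2-depleted and DKO hippocampus (p = 0.200 and 0.369 against control).

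Only Cdkn1c and Cdkn2c varied enough over the 5 conditions, by more than 1 on a scale of log2(FPKM + 0.1), to look for genes of like pattern among the 11784 other genes that reached 1 FPKM. Nearest to Cdkn1c was Pcolce, an enhancer of procollagen processing, with 1.76 and 1.47 FPKM in cortex and 1.73, 2.85 and 1.33 FPKM in hippocampus, at a root mean square difference of 0.09 over the 5 conditions after centring. 9430038I01Rik (0.11) and Kctd18 (0.17) followed. Nearest to Cdkn2c were Slc35b1 (0.12), Klhl17 (0.14) and Slc16a11 (0.17). Slc35b1 had 4.75 and 2.73 FPKM in cortex and 3.30, 2.16 and 1.70 FPKM in hippocampus. These likenesses rest on 5 pooled values each.

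Levels in control cortex and control hippocampus come from tables made separately and are set side by side without a test. Each of the 8 measured members differed by at most 1.41-fold between the tissues (Cdkn2b) when rows were summed. By the row with the highest mean alone, the log2 ratio of cortex to hippocampus turned from -0.18 to 0.97 for Rbl2 and from 0.16 to -0.76 for Rbl1. The related inhibitor p21 (Cdkn1a) was at 8.99 FPKM in control cortex and 2.58 FPKM in control hippocampus, a 3.49-fold difference. With TRF2 depleted it was at 8.32 FPKM in cortex and 1.79 FPKM in hippocampus, and at 2.53 FPKM in DKO, with no call in the authors' deposited table.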

How the data were processed

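Per the labels' protocols, RNeasy kits gave total RNA and NEBNext Ultra kits the libraries. Per the submitters' processing notes, the tools included CASAVA 1.8, TopHat2, Cufflinks and Cuffdiff, with build mm10 (settings, annotation, strand use: not given in the sources used here). Values that the authors deposited are FPKM for each coding-sequence row, pooled over the samples of a condition, beside a p-value and a q-value, per the file headers. Whether samples came from separate animals is unknown, so these p-values may reflect technical spread only.

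FPKM was summed over the rows of each gene symbol, and log2 ratios were computed without a pseudocount. A gene counts as tested where the authors marked a row so. List medians used genes with at least 0.1 FPKM in both groups. No test of differences was added, since there are no values per sample. Named were the members, Cdkn1a, Terf2, the called genes of each pathway list (or up to 2 with the smallest p, some omitted) and the 3 nearest profiles of members with at least 1 FPKM and a range over 1. Overlapping genes, Tssc4 and the marker sums without Ttr or without Ptgds and Igf2 were added after their values were seen. Members and lists were chosen with earlier results of these data known. Promoter windows are from RefSeq (GRCm38.p6), gene positions from GENCODE M21 (GRCm38, the assembly of mm10). Calculations used Python 3.11.15, numpy 2.4.6, pandas 2.3.3 and matplotlib 3.10.9, and were tested on simulated data. Alternatives changed the call rule, the minimum level, the pseudocount, the rows summed and the centring.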

Additional observations from a re-analysis of the deposited data

How the results depend on the processing

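The count of members called, 0 in each of the 4 comparisons, was also 0 at a q of 0.1 and when adjusted over each comparison alone. For cortex the authors deposited only the TRF2-depleted against control comparison, so adjusting over it alone is no separate check. Asking for at least 1 FPKM as well could only remove calls, so the 0 found there is no check. At an unadjusted p under 0.05 the count became 1 in TRF2-depleted against control hippocampus and 1 in DKO against TRF2-depleted hippocampus, Cdkn1c in both. Of 170 recomputed log2 ratios of members, 8 changed sign, 5 of them for the row with the highest mean FPKM in place of the sum, and 7 of the 8 were of Rbl1 or Rbl2. With a pseudocount of 1 FPKM, Cdkn2c gave -0.43 in cortex and -0.38 in TRF2-depleted hippocampus, and Cdkn1c 0.50 in the latter. No paired analysis was possible because each condition has a single pooled value, and for the same reason no sample could be left out in turn. The depth behind low values such as those of Cdkn2b, Rbl1 and Cdkn2a is unknown.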

Other observations

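Nap1l4, a histone chaperone gene beside Cdkn1c, summed to 20.0 and 17.7 FPKM in the cortex groups and to 0.00106, 0.00120 and 0.00106 FPKM in control, TRF2-depleted and DKO hippocampus. The values of the tissues come from tables made separately, so this difference was not tested. The values near 0 are not taken here as absence of its RNA from hippocampus. Tssc4, in the same imprinted domain, was at 2.93 and 2.24 FPKM in cortex and at 1.94, 5.18 and 2.87 FPKM in hippocampus. Mtap, the metabolic gene beside Cdkn2a, had 1.83 and 2.36 FPKM in cortex and 2.43, 2.46 and 1.70 FPKM in hippocampus, with p = 0.0406 and q = 0.886 for DKO against control in the authors' deposited table. Of 3 listed genes beside Cdkn2a, 2 were tested and 0 called.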
